A study of Mus musculus with 6 samples.

Results

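Naive-only regions near gene ends were stretches of open chromatin that had a peak in naive mouse CD4 T cells, had no peak after 48 h or 72 h of Th17 culture, and lay within 1 kb of an end of a protein-coding gene. Overlapping peaks of the 3 lists, with 1 bp in common or more, formed 1 region. A region was a member when it held a naive peak and no 48 h or 72 h peak, and when the distance from its middle to an end of a RefSeq GRCm38 protein-coding gene was at most 1 kb. The rule found 2360 members among 81315 regions, near the ends of 2356 genes. The members were chosen by presence and absence in the lists, so the shares of naive-only regions below are descriptions and carry no test.

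The assay was ATAC-seq, which cuts and tags accessible DNA with Tn5 transposase, on CD4+ T cells from mice of the C57BL/6 strain. The groups were untreated naive CD4+ cells and Th17 cells made from naive cells on plate-bound anti-CD3ε (0.25 μg/mL) and anti-CD28 (1 μg/mL) with TGF-β (0.1 ng/mL) and IL-6 (20 ng/mL) for 48 h or 72 h. Each group has 2 libraries of 10000 cells, and the lists hold 53259 peaks for naive cells, 40624 for 48 h and 53926 for 72 h, 1 list per group. Differences between groups therefore have no replicate check, read depth is unknown, and 95% intervals are exact Clopper-Pearson intervals that cover counting error only.

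The start of an active gene is usually kept free of nucleosomes, and in most tissues this opening spans a CpG-rich stretch that many cell types share. Naive CD4 T cells are quiescent cells that circulate through lymph nodes by way of homing receptors such as CCR7, and TCF-1 (Tcf7), FOXP1 and their partners hold them in that state. Engagement of the T cell receptor with CD28 ends quiescence, and TGF-β with IL-6 directs the cells to the Th17 fate, marked by IL-17.

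The labelled cell type was checked with marker genes. All 8 genes of the CD4 T cell list, among them Cd4, Cd3e and Zbtb7b, had a region near an end in naive cells, at 48 h and at 72 h. Of the 7 naive T cell markers, 7 had such a region in naive cells, 6 at 48 h, where Il7r had none, and 7 at 72 h. Among the Th17 markers, Il17a, Il17f and Ccr6 had none in naive cells, Il17f and Ccr6 had none at 48 h, and Ccr6 had none at 72 h. A missing peak shows only that no peak passed the authors' calling, not that the chromatin was closed. In bulk samples, fewer open cells and less opening per cell cannot be told apart.

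Members that cover an annotated start show which promoter sequence lost its peak. The sequences are from RefSeq promoter windows of GRCm38.p6, which run from 250 bases before an annotated start to 50 after it, and each is the part of a window that the member covers, 5′ to 3′ on the strand of the gene. Capitals mark matches, on either strand, to the 14 short motifs that are spelled out with the promoter results below. A match is a description of the letters and not a binding site. The first set holds 3 interferon response genes, shown because none of them kept a region near an end at 48 h or 72 h. They are Isg15 (chr4:156200799-156200908, minus strand), which encodes a ubiquitin-like antiviral protein, Ifi44 (chr3:151749890-151750033, minus strand), an interferon-induced gene, and Ifit3 (chr19:34583279-34583346, plus strand), an antiviral factor of the IFIT family. Isg15 and Ifi44 were chosen after their values were seen, and the Ifit3 window belongs to an alternative start of the gene.
Isg15: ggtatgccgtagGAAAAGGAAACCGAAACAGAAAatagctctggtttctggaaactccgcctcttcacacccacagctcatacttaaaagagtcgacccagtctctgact
Ifi44: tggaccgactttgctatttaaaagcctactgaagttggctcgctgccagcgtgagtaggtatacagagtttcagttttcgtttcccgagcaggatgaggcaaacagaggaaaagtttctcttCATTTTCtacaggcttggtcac
Ifit3: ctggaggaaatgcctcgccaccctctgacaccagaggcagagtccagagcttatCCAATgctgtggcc
In Isg15, bases from -78 to the end of the run of capitals hold 3 overlapping matches to the core of the interferon-stimulated response element (GAAA, any 2 bases, GAAA), which begin 78, 72 and 66 bases before the start. The matches to that core in the Ifit3 window begin at -156 and -122, outside the 68 bases that the member covers.

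The second set holds genes of naive T cells and of T cell migration, shown because their members lie at an annotated start and no Th17 region touches the same window. Tcf7 (chr11:52282546-52282668, minus strand) encodes TCF-1, Cd27 (chr6:125236978-125237117, minus strand) a costimulatory receptor, Cx3cr1 (chr9:120068247-120068480, minus strand) the receptor for fractalkine, and Gpr183 (chr14:121965144-121965258, minus strand) the oxysterol receptor EBI2. The Tcf7 window is at an alternative start inside the gene. Of these 4, Tcf7, Cd27 and Gpr183 were chosen after their values were seen.
Tcf7: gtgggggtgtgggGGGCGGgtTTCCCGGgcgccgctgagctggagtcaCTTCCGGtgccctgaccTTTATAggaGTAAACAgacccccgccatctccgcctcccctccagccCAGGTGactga
Cd27: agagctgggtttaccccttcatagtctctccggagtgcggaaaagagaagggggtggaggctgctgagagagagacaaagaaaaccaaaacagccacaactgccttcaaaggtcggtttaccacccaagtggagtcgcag
Cx3cr1: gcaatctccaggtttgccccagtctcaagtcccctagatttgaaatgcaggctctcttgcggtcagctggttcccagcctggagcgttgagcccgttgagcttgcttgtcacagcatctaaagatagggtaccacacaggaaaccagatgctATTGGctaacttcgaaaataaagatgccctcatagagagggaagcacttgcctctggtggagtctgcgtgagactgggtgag
Gpr183: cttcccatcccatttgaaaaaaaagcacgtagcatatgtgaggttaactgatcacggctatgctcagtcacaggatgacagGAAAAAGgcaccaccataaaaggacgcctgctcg
The covered part of the Tcf7 window held letters of 6 motifs, among them ETS (CTTCCGG on this strand) and forkhead (GTAAACA), and that of Cd27 held none of the 14.

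The third set holds E2f2 (chr4:136172040-136172277, plus strand), a cell cycle factor, and the start regions of Itgam (chr7:128062516-128062689, plus strand) and Gzma (chr13:113100939-113101140, minus strand). Itgam encodes CD11b, a marker of myeloid cells, and Gzma encodes granzyme A of cytotoxic cells. They are shown because their genes kept no region near an end in Th17 culture.
E2f2: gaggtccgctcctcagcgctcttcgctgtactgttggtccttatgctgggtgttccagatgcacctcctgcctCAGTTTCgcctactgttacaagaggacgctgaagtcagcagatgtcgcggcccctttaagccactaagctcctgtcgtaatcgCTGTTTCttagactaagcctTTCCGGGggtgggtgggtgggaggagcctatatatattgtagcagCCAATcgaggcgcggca
Itgam: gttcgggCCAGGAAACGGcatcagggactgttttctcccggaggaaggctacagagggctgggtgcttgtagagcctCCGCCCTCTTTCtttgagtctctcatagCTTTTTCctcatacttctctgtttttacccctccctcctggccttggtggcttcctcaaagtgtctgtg
Gzma: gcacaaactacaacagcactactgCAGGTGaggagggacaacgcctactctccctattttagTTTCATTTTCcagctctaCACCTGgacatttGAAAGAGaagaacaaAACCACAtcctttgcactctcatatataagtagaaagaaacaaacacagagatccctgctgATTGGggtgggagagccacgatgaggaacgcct
The other 3 list genes that the naming rule gave for sequences were Ubash3a and Il2, where a Th17 region covered 38 and 91 bases of the same window, and Prkcq, where the member covered 50 bases.

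Members lay beside the outer starts of genes more than on them. A start here is the outer end of the gene. Members over an alternative start further in, as at Tcf7 and Prkcq, therefore count as inside the gene. The RefSeq promoter table told start from transcript end for 1839 members. Of these, 1405 lay nearest a start and 434 (23.6%, 95% interval 21.7 to 25.6%) nearest a transcript end. Among constant regions near gene ends, those with a peak in all 3 lists, 7522 lay nearest a start and 308 (3.93%, 3.51 to 4.39%) nearest a transcript end. Of the members nearest a start, 256 (18.2%, 16.2 to 20.3%) had their middle within 200 bp of it, against 4746 constant regions (63.1%, 62.0 to 64.2%). Another 736 members lay over 200 bp into the gene and 413 lay over 200 bp upstream. The median distance to the start was 536 bp for members and 146 bp for constant regions. The 3 other sets of changing regions near gene ends that were measured lay between them in distance to the start. Regions with a peak at 48 h only or at 72 h only were not measured. Within 200 bp were 29.1% of the regions in naive cells and at 48 h (median 464 bp), 33.7% of those in naive cells and at 72 h (430 bp) and 42.5% of those at 48 h and 72 h without a naive peak (266 bp). Nearest a transcript end were 27.8% (22.3 to 33.8%), 16.0% (13.4 to 18.9%) and 19.4% (16.7 to 22.4%) of them in the same order, so the members' 23.6% was not the highest share.

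**Figure D1:**
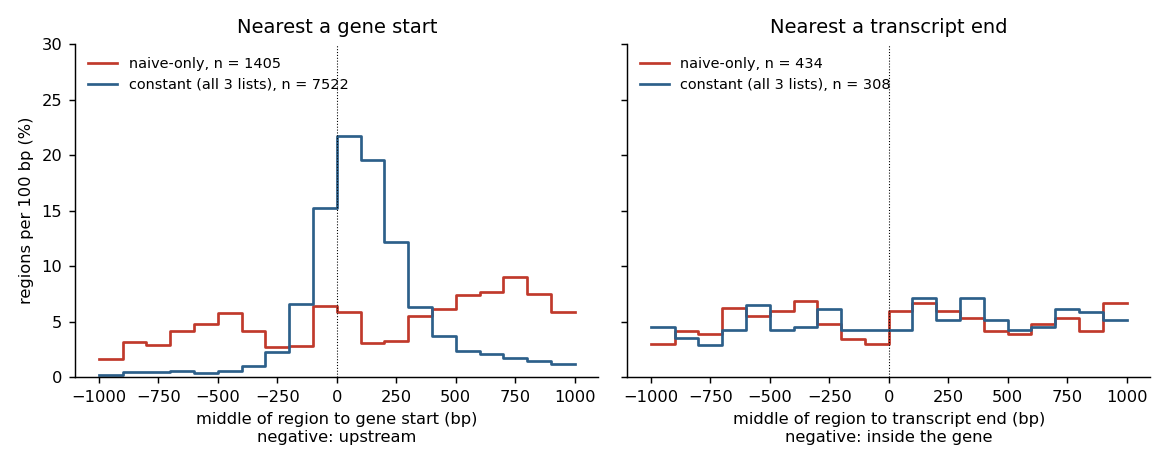
Position of naive-only and constant regions within 1 kb of the outer start of a gene (left) or a transcript end (right), as the percentage of regions in each 100 bp of distance (bp). Constant regions pile up at the start, while naive-only regions form 3 low humps, upstream (5.77% at 400 to 500 bp), at the start (6.41% in the 100 bp before it) and inside the gene (9.04% at 700 to 800 bp).

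Near gene ends, a smaller share of the naive regions was naive-only than in the rest of the genome. Of the 13252 naive regions near gene ends, 2360 (17.8%, 17.2 to 18.5%) were members. The share was 54.8% (54.1 to 55.4%) of the naive regions inside genes and 54.2% (53.4 to 54.9%) of those between genes, and 45.1% over all naive regions. The members were narrow. Their naive peaks had a median width of 169 bp (quartiles 123 and 239 bp), against 700 bp (473 and 929 bp) for the constant regions near gene ends, 194 bp for naive-only regions inside genes and 199 bp for those between genes. Each member held 1 naive peak, 974 were under 150 bp wide, 153 were at the smallest width in the list (100 bp) and 81 were 500 bp or wider. Naive peaks carry no score in the deposited list, so width is their only deposited value.

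Width moved with the naive-only share in each place. Of naive regions under 150 bp wide, 71.6% (69.1 to 74.0%) were naive-only near gene ends, 76.7% (75.5 to 77.9%) inside genes and 75.0% (73.6 to 76.4%) between genes, so the places were close together at the smallest widths. Of those 300 to 499 bp wide, 12.1% (10.8 to 13.5%) were naive-only near gene ends, against 43.2% inside genes and 43.1% between genes. From 500 bp upward, 81 of 7215 (1.12%, 0.893 to 1.39%) were naive-only near gene ends, 623 of 3191 (19.5%) inside genes and 559 of 2262 (24.7%) between genes. The share near gene ends lay below the others in each width class, and the difference in percentage points was larger at 300 to 499 bp than under 150 bp or from 500 bp upward. The part that peak width or the calling played in these shares was not tested.

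**Figure D2:**
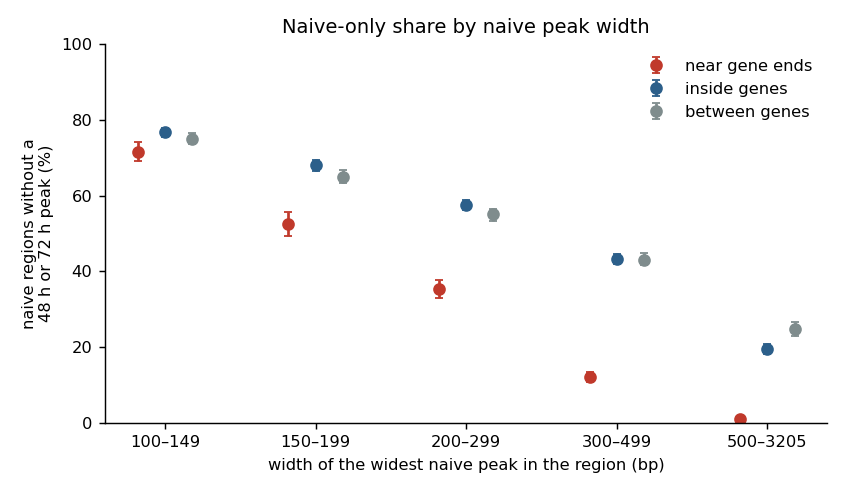
Percentage of naive regions with no 48 h or 72 h peak, by the width of their widest naive peak (bp), near gene ends, inside genes and between genes, with exact 95% intervals. The 3 places start within a few points of each other under 150 bp and end at 1.12%, 19.5% and 24.7% from 500 bp upward.

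Most members had an open Th17 region close by. The gene of 1819 members (77.1%, 75.3 to 78.8%) kept another region near an end at 48 h or 72 h, and for 1437 (60.9%, 58.9 to 62.9%) that region was at the same end. Kept here means that a Th17 region lay near an end, whether or not that region also had a naive peak. At Il23r, Ubash3a, Ptpn6 and Cx3cr1 each naive region near an end was a member, so the Th17 regions there had no naive peak. These shares were not computed for all naive regions near gene ends. By gene, 501 of the 11438 genes with a naive region near an end (4.38%, 4.01 to 4.77%) had no Th17 region near an end. Having one was thus the rule among these genes. A Th17 peak lay within 500 bp of 1303 members (55.2%, 53.2 to 57.2%), a share also not computed for all naive regions. For 1060 of these (81.4%, 79.1 to 83.4%) the nearest such region was constant, with a peak in all 3 lists. Members nearest a start had a median gap of 262 bp to the nearest Th17 peak (quartiles 140 and 702 bp), and 968 of them (68.9%) had a peak within 500 bp. Members nearest a transcript end had a median gap of 3872 bp (1232 and 8917 bp), and 64 of them (14.7%) had a peak within 500 bp.

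**Figure D3:**
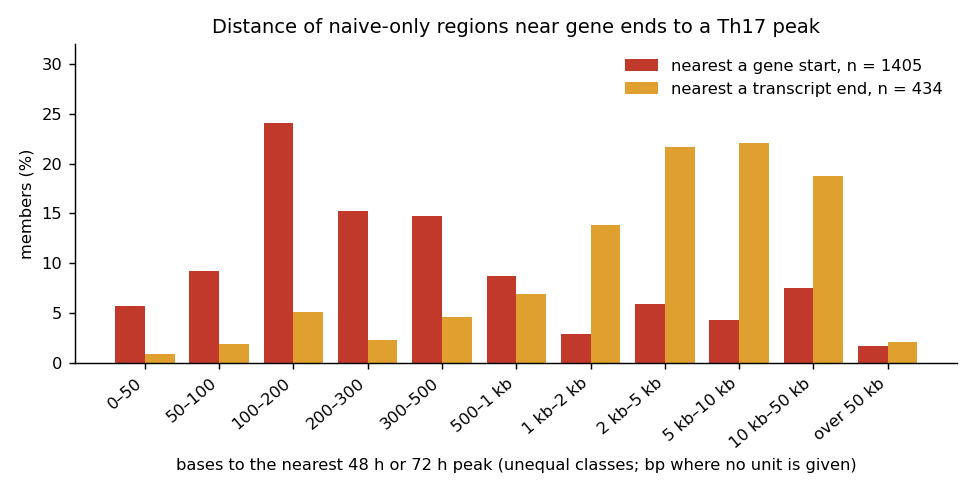
Gap in bases from each member to the nearest 48 h or 72 h peak, in unequal distance classes, as the percentage of members nearest a gene start (n = 1405) or a transcript end (n = 434). Start members gather at 100 to 200 bp (24.1%) and transcript end members at 2 to 10 kb (21.7% and 22.1% in its 2 classes).

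The constant regions with a member within 500 bp were like the others in size. The 980 of them had median peak widths of 672 bp in naive cells, 478 bp at 48 h and 593 bp at 72 h, against 705, 499 and 620 bp for the other 8704. When peaks up to 500 bp apart were merged into 1 region, 898 members were left, 50.4% of those told lay nearest a start, and 50.2% had a gene that kept a region near an end. Such merging removes members with a close Th17 peak by construction. Of the 1303 members with one within 500 bp, the nearest Th17 region was constant for 1060. The number of members beside starts and their share thus depend on counting a narrow naive peak apart from a close Th17 neighbour, constant or not.

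At 541 members (22.9%, 21.2 to 24.7%) no Th17 region was left near an end of the gene. Their naive peaks had a median width of 189 bp, against 162 bp where the gene kept a region, and the nearest Th17 peak was 6889 bp away in the median. Counted by gene, 2356 of the 11438 genes with a naive region near an end (20.6%, 19.9 to 21.4%) had a member, and 501 (4.38%, 4.01 to 4.77%) had a member and no Th17 region near an end. Among genes with members, 2096 had 1, 242 had 2, 17 had 3 and 1 had 4, and 270 members lay near ends of more than 1 gene. The gene with 4 was H2bfm, a variant histone gene on chromosome X, whose locus held 6 naive regions, 0 at 48 h and 1 at 72 h. A locus here is the gene with 10 kb on each side.

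The widest member covered an annotated start of Chl1 (chr6:103510587-103511894, 1308 bp), a neural cell adhesion gene. Th17 peaks lay 196 bp (48 h) and 184 bp (72 h) from it, and the locus held 11 regions in naive cells, 3 at 48 h and 4 at 72 h. Cst7, which encodes cystatin F, a protease inhibitor of blood cells, had a member of 839 bp at its transcript end, with the nearest Th17 peak 7788 bp away. Hspa1a, an inducible HSP70 gene, had a member of 810 bp beyond its transcript end. Satb1, the chromatin organiser of T cells, had a member of 750 bp beyond its transcript end (chr17:51735199-51735948), 27578 bp from the nearest 48 h peak and 26691 bp from the nearest 72 h peak. Its locus fell to 5 regions at 48 h and 6 at 72 h, against 19 in naive cells. Clec2i, a C-type lectin gene, had a member of 745 bp and Gpr65, a proton-sensing receptor, a member of 731 bp over its start. Neither gene had a Th17 region with its middle within 1 kb of an end. Even so, Th17 peaks lay 1011 bp (48 h) and 857 bp (72 h) from the Clec2i member. At the Gpr65 member they lay 564 bp (48 h) and 595 bp (72 h) away. For both members the nearest Th17 region was constant. The other 4 of the 10 widest were at Cd226, an adhesion and costimulatory receptor (732 bp), at 3300002I08Rik (709 bp), at A530021J07Rik (708 bp) and at Dph5 (694 bp), an enzyme of diphthamide synthesis. Of the 10 widest members, 4 lay at transcript ends (Cst7, Hspa1a, Satb1 and Dph5) and 2 at ends that were not told (Cd226 and 3300002I08Rik).

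The limit of 1 kb cuts through a continuous range. The members just inside it were at Bag6 (middle 997.5 bp from the end, 164 bp wide), Slc9a7 (997.0 bp, 101 bp wide) and Plin3 (996.5 bp, 336 bp wide). The naive-only regions just outside it were at Egr2 (1001.5 bp, 158 bp wide), Map3k9 (1001.5 bp, 414 bp wide) and Trps1 (1002.0 bp, 193 bp wide).

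Members were then described by the roles of their genes, in 15 lists. Each share below is of the genes of a list with a naive region near an end, to be read beside 20.6% over all genes, and counts of genes with a member and no Th17 region near an end are to be read beside 4.38% over all genes. Genes with several naive regions near their ends have more chances to hold a member, and the lists were chosen with earlier results of these data known.

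Among genes of naive and quiescent T cells, 10 of 21 (47.6%, 25.7 to 70.2%) had a member, and 1 of them, Cd27, had no Th17 region near an end. Foxp1, a quiescence factor, had 4, 1 and 1 regions near its ends in naive cells, at 48 h and at 72 h, with a member of 100 bp over its start and another of 184 bp upstream. Ccr7, the receptor that draws naive cells to lymph nodes, had 2, 2 and 1 regions and a member of 192 bp. Tcf7 had 2, 1 and 1, and its member of 179 bp was 661 bp from the nearest 48 h peak and 543 bp from the nearest 72 h peak. Slfn2, a Schlafen gene needed for T cell quiescence in mice, had 2, 1 and 1 regions with a member of 188 bp. Foxo1, Bach2, Satb1 and Btg2 had members as well. Apart from Cd27, each gene of this list with a member kept a region near an end at 48 h and at 72 h.

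Among T cell receptor signalling genes, 9 of 34 (26.5%, 12.9 to 44.4%) had a member, and Dgkz, Prkcq and Csk had no Th17 region near an end. Dgkz, the kinase that removes diacylglycerol and dampens receptor signals, had a member of 615 bp over its start (chr2:91975856-91976470) and one of 413 bp beyond its transcript end (chr2:91931907-91932319). Its locus held 13 regions in naive cells, 7 at 48 h and 9 at 72 h, and the nearest Th17 peaks were 8121 and 7628 bp from these members. Prkcq, which encodes PKCθ, had a member of 215 bp and a locus of 21, 11 and 16 regions in naive cells, at 48 h and at 72 h. Cd2, an adhesion receptor, had a member of 553 bp outside its annotated end and a locus of 12, 1 and 5 regions. Cd3e, a chain of the T cell receptor complex, had a member of 377 bp beyond its transcript end, 719 bp from the nearest Th17 peak. Ubash3a, a phosphatase that restrains receptor signals, had members of 324 and 100 bp, and a 48 h peak lay 52 bp from the wider. Ptpn6, which encodes SHP-1, had members of 213 and 155 bp, and a 72 h peak lay 8 bp from the narrower. The wider Ptpn6 member was 1971 bp from the nearest 48 h peak and 8543 bp from the nearest 72 h peak. The members of Dgkz and Prkcq stood over 7 kb from any Th17 peak.

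Cytokine receptors and their signalling genes had a member in 8 of 38 cases (21.1%, 9.55 to 37.3%), and each of these 8 genes had a Th17 region near an end. At Il23r no such region had a naive peak. Il23r, the receptor chain for IL-23, had 2 members beyond its transcript end, 372 and 297 bp wide (chr6:67422432-67422803 and chr6:67421825-67422121). Il12rb2, a chain of the IL-12 receptor, had a member of 295 bp, 120 bp from a 72 h peak. Tgfbr1, a TGF-β receptor kinase, had a member of 272 bp upstream of its start, 208 bp from a 48 h peak. Stat6 (196 bp) and Il4ra (178 bp) had narrow members.

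Trafficking and adhesion genes had a member in 9 of 24 cases (37.5%, 18.8 to 59.4%), and Gpr183 and Itgb7 had no Th17 region near an end. Cxcr4, the receptor for CXCL12, had a member of 580 bp and 3, 1 and 2 regions near its ends in naive cells, at 48 h and at 72 h. The member of Cx3cr1 was 317 bp wide and covered its start, with the nearest Th17 peak 4745 bp away. Gpr183, which guides cells within lymphoid organs, had a member of 301 bp before its start and another of 188 bp over it, and its locus held 6 regions in each of the 3 lists. S1pr4, a sphingosine 1-phosphate receptor, had a member of 160 bp.

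Of T cell transcription factor genes, 10 of 44 (22.7%, 11.5 to 37.8%) had a member. Irf4, a factor induced by T cell receptor signals and needed for Th17 cells, had 3 members around its transcript end, 531, 133 and 114 bp wide. Its regions near the ends numbered 5 in naive cells, 2 at 48 h and 2 at 72 h. Tbx21, which encodes T-bet, had members of 205 and 124 bp on both sides of its start, with Th17 peaks 88 to 515 bp away. Rel (183 bp), Ikzf3 (175 and 156 bp) and Runx1 (167 bp) had members as well. Of the Th17 lineage genes, 3 of 9 had a member (33.3%, 7.49 to 70.1%), among them Irf4 and Il23r.

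T cell activation and checkpoint genes had a member in 11 of 23 cases (47.8%, 26.8 to 69.4%), and each of the 11 kept a Th17 region near an end in at least 1 list. Ctla4, an inhibitory receptor, had a member of 460 bp beyond its transcript end (chr1:60916352-60916811). Nfkbia, which encodes the NF-κB inhibitor IκBα, had members of 235 and 219 bp beyond its transcript end. Il2, the T cell growth factor, had a member of 234 bp upstream of its start (chr3:37126155-37126388), with a 48 h peak 159 bp away and the nearest 72 h peak 1945 bp away. Regions near the ends of Il2 numbered 2 in naive cells, 3 at 48 h and 0 at 72 h. Cd69, an early activation receptor, had a member of 196 bp, and Nfkbid, a nuclear NF-κB regulator, a member of 180 bp 29 bp from a 48 h peak.

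Interferon response genes had a member in 7 of 27 cases (25.9%, 11.1 to 46.3%). Of these, Ifit3, Oas2, Ifi44 and Isg15 had no Th17 region near an end, so 4 of the 27 had no end region left, where the share over all genes was 4.38%. No interval was computed for this small count, so it does not set the list apart from all genes. Ifit3 had a member of 341 bp over its start (chr19:34583006-34583346) and one of 469 bp inside its transcript end (chr19:34588187-34588655). Its locus held 3 regions in naive cells, 0 at 48 h and 0 at 72 h, and the nearest Th17 peak to the start member was 24051 bp away. Oas2, an enzyme that senses double-stranded RNA, had a member of 318 bp and a locus of 2 regions in naive cells, 1 at 48 h and 0 at 72 h. Ifi44 had a member of 144 bp and a locus of 1, 0 and 0 regions. The Isg15 member was 110 bp wide, with Th17 peaks 2183 bp (48 h) and 2078 bp (72 h) away. Tap1 (427 bp), a peptide transporter of antigen presentation, and Ifi35 (144 bp) kept Th17 regions near an end.

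For the survival, growth and housekeeping lists, the intervals held the share over all genes. Survival and apoptosis genes had a member in 6 of 17 cases (35.3%, 14.2 to 61.7%). Only Traf1, an adaptor of TNF receptors, lacked a Th17 region near an end among these 6, and its member of 162 bp lay at its start. Growth and cell cycle genes had a member in 11 of 36 cases (30.6%, 16.3 to 48.1%). E2f2, with a member of 238 bp that ended at its start, was the gene without a Th17 region near an end, and its locus held 8 regions in naive cells, 4 at 48 h and 7 at 72 h. Ncl, which encodes nucleolin, had a member of 369 bp beyond its transcript end. Housekeeping genes had a member in 3 of 15 cases (20.0%, 4.33 to 48.1%), at Sdha, Actb and Tbp, with widths of 108 to 136 bp. Of these, Actb, which encodes β-actin, had 1 region near an end in naive cells, 0 at 48 h and 0 at 72 h, and its member of 112 bp lay 1556 bp from the nearest Th17 peak.

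**Figure D4:**
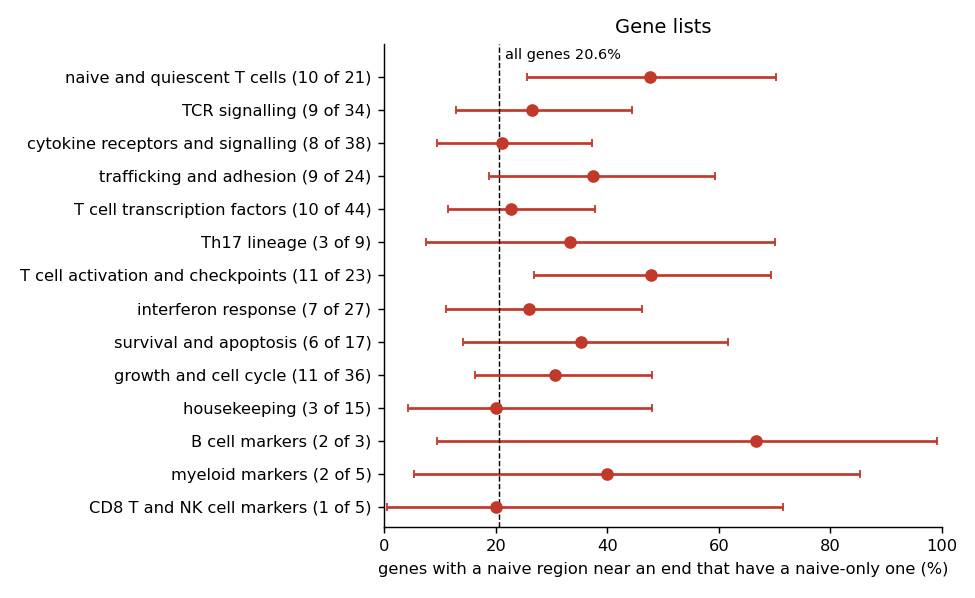
Percentage of the genes of each list with a naive region near an end that have a naive-only one, with exact 95% intervals and, in brackets, the counts. The dashed line is the share over all genes (20.6%), and the intervals of the naive and quiescent T cell list and of the activation list lie above it.

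Markers of other cells could also hold members. Among B cell markers, 3 genes had a region near an end in naive cells, 2 at 48 h and 2 at 72 h, and 2 had a member, Ebf1 (236 bp) and Cd79a (222 bp). Cd79b, Ms4a1 and Pax5 had none in any list. Among myeloid markers, 5 genes had such a region in naive cells, 5 at 48 h and 5 at 72 h, and Itgam and Cebpb had a member. The Itgam member was 242 bp wide and its locus held 7 regions in naive cells, 1 at 48 h and 1 at 72 h, whereas Csf1r, Lyz2, Adgre1, Mpo and Elane had none in any list. Among CD8 T and NK cell markers, 5 genes had a region near an end in naive cells, 6 at 48 h and 7 at 72 h, and Gzma had 2 members, 202 and 100 bp wide. Cd8a, Klrb1c and Ncr1 had none in any list. The genes of unrelated tissues had 0, 0 and 2 genes with such a region in naive cells, at 48 h and at 72 h, and no member. The part that other cells in the naive samples played in the members was not tested.

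Promoters that a member covered were poorer in CpG than those of constant regions. A member covered 302 promoter windows of 278 genes, and in 256 windows of 232 genes no Th17 region touched the window. These 256 are 2.41% of the 10631 windows that a naive region covered. They held a median of 9.50 CpG sites per 300 bases, against 23 in the 9860 windows of constant regions, 4 in the 9714 windows with no region and 13 over all windows. The ratio of observed to expected CpG was 0.437 in the member windows, 0.811 with a constant region and 0.221 with none. GC content was 54.7%, 62.3% and 48.7% in the same order. The member windows thus stood between those of constant regions and those with no region on each of these measures.

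The letters of 14 motifs were searched on both strands of each 300-base window, where N is any base. They were CCGGAAG for ETS factors, GGGCGG for SP and KLF factors, CCAAT for NF-Y, TATAAA for the TATA box, GCGCATG for NRF1, TGACGTC for the cAMP response element, TGACTCA for AP-1, GTAAACA for forkhead factors, CTTTGAT for TCF and LEF, TGTGGTT for RUNX, CAGGTG for an E box, GAAANNG for IRF factors, TTCCNGG for STAT factors and GAAA, any 2 bases and GAAA again for the core of the interferon-stimulated response element. The last contains the IRF letters and was added after the data were seen, and other matches can overlap too. ETS letters were in 7.42% (4.53 to 11.3%) of member windows, against 21.5% with a constant region, 2.64% with none and 11.6% of all windows. SP and KLF letters were in 48.4% (42.2 to 54.7%) of member windows, 70.7% with a constant region, 19.2% with none and 46.2% of all. NRF1 letters were in 3.12%, 8.04%, 1.78% and 4.80% in the same order, and those of the cAMP response element in 3.52%, 6.31%, 1.45% and 3.84%. The interval of the member windows lay below the share with a constant region for the ETS, SP and KLF and NRF1 letters (1.36 to 6.06%) and held it for the cAMP response element (1.62 to 6.57%). In the 918 windows covered by a Th17 region and no naive region, ETS letters were in 2.94% (1.95 to 4.25%), SP and KLF letters in 65.5%, NRF1 letters in 3.38%, NF-Y letters in 31.6% and AP-1 letters in 8.71%. A lower ETS share than with a constant region was thus not particular to the member windows.

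The other motifs gave no single order of the sets. RUNX letters were in 6.64% (3.92 to 10.4%) of member windows, 3.22% with a constant region, 6.25% with none and 4.71% of all. E box letters were in 23.0%, 16.9%, 22.1% and 19.7% in that order, forkhead letters in 3.12%, 2.22%, 3.85% and 3.01%, and TCF and LEF letters in 3.12%, 2.31%, 4.29% and 3.22%. AP-1 letters were in 3.12%, 2.75%, 6.29% and 4.66%, and STAT letters in 28.1%, 31.6%, 23.9% and 27.7%. NF-Y letters were in 31.2%, 39.3%, 38.5% and 38.2%, TATA letters in 8.20%, 5.37%, 20.5% and 12.6%, and IRF letters in 57.4%, 47.6%, 55.3% and 51.3%. The interval of the member windows lay above the share with a constant region for the RUNX, E box (18.0 to 28.7%) and IRF letters (51.1 to 63.6%) and below it for NF-Y (25.6 to 37.3%). For the other 5 motifs it held that share. In the 137 windows that a member covered by at least 150 bp, E box letters were in 22.6% (15.9 to 30.6%), and that interval held the share with a constant region.

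The core of the interferon-stimulated response element was in 17 member windows (6.64%, 3.92 to 10.4%), against 2.66% with a constant region, 3.99% with none and 3.35% of all windows. The interval lay above the share with a constant region and held the share with none. In the 137 windows that a member covered by at least 150 bp the core was in 6 (4.38%, 1.62 to 9.29%), and that interval held the share with a constant region. The 17 windows belonged to 15 genes. Windows of the same gene can overlap, as those of Bcor and of Dhrs3 do, while the intervals for all motifs treat windows as independent. A member covered only 1 base of a Dhrs3 window. Isg15, Ifit3, Ifi214, Slfn9, Tgtp1 and Tgtp2 belong to interferon-induced genes or gene families, and Gzma was among the rest with Bcor, Chl1, Dhrs3, Eps8l1, Gfra1, Gpr15, Jaml and Ttyh1. Tgtp1 (107 bp) and Tgtp2 (102 bp) are near-identical copies, so the place of their reads is uncertain. At Ifi214 the members were 145 and 100 bp wide, and at Slfn9 they were 204 bp inside the gene and 254 bp over its start. Jaml, an adhesion molecule of immune cells, had a member of 205 bp over its start with the nearest 48 h peak 3853 bp away.

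**Figure D5:**
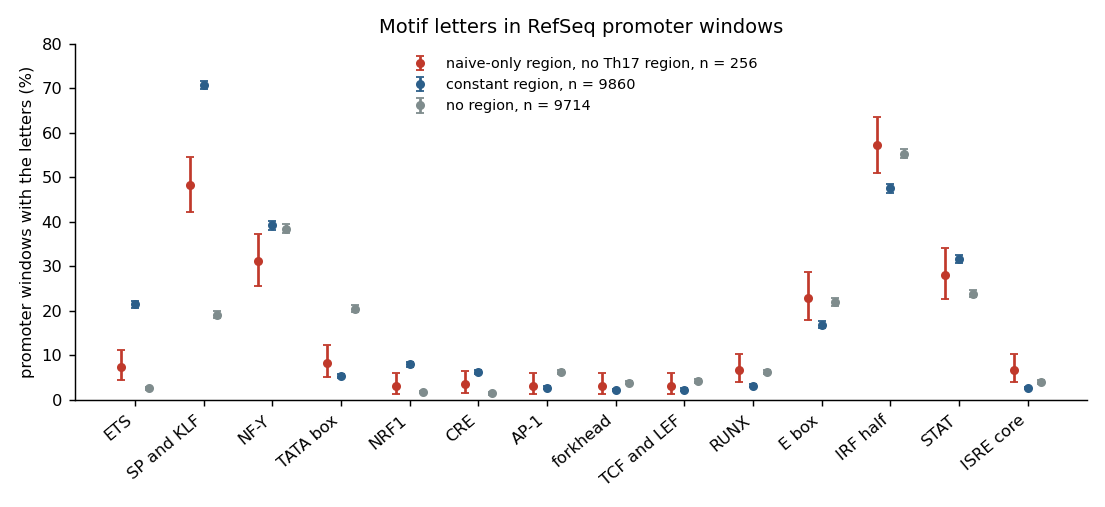
Percentage of RefSeq promoter windows that hold the letters of each motif on either strand, for windows covered by a naive-only region and no Th17 region, by a constant region or by no region, with exact 95% intervals. The member windows lie well below the constant ones for ETS (7.42% and 21.5%) and SP and KLF letters (48.4% and 70.7%).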

How the data were processed

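The 3 deposited peak lists, 1 each for naive cells, 48 h and 72 h, give the start and end of each peak, as the authors called it. Per the submitters' processing notes, the tools were MACS2 2.2.6, Bowtie2 2.3.4.1, deepTools and SAMtools 1.9, and the builds GRCm38 and mm10, which are 1 assembly. Not given in the sources used here are the calling threshold, filters, Tn5 shift and any pooling of the 2 libraries. The sample records give a fragment range of 150 to 350 bp for each library, and its part in the peaks was not tested. The authors' deposited score is in the 48 h and 72 h lists only, runs from 30 upward on an unstated scale, and was used only to filter peaks within a list. A naive line with no values (1 line) was dropped. The lists hold no reads, so depth is unknown and no test was run.

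Overlapping peaks (at least 1 bp) were merged in Python 3.11.15 with numpy 2.4.6 and pandas 2.3.3, intervals came from scipy 1.17.1, and the steps were tested on simulated data, where 400 of 400 planted regions were recovered. Gene ends came from RefSeq GRCm38.p6 (21900 protein-coding genes), and starts from its promoter table (17492 of them). No genome was used, so only promoter windows gave sequence. Replicates were not analysed separately.

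The members, the gene lists and the motifs were chosen with earlier results of these data known. Named genes were the 10 widest members, up to 6 genes per list by width, up to 5 genes with the most members, those at the limit, the 5 widest at genes with and without a Th17 end region, and for sequences up to 8 list genes. Genes with equal numbers of members were taken in alphabetical order, and Isg15, Ifi44, Tcf7, Cd27, Gpr183 and the genes with the interferon element were added after their values were seen. Alternatives changed the distance limit, the merging, the peaks kept and the window overlap. Values of some genes of the lists are not reported here.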

Additional observations from a re-analysis of the deposited data

How the results depend on the processing

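The reported values were 2360 members, 17.8% of the naive regions near gene ends, a median width of 169 bp, 77.1% with a gene that kept a Th17 region near an end, 76.4% nearest a start among those told, and 84 list genes with a member. A count is said to have moved little within 1.5 times the reported count, and a share or width within the 95% interval of the reported value. By that measure, 16 of 49 alternative values moved little and 33 moved. With a limit of 0.5 kb the values were 1110, 10.8%, 54.1%, 73.9% and 46 genes, and with 2 kb they were 3740, 22.9%, 84.7%, 71.9% and 140 genes, while the width moved little. With peaks up to 500 bp apart merged they were 898, 8.34%, 192 bp, 50.2%, 50.4% and 41 genes. With peaks of at least the median width of their list they were 998, 10.2%, 361 bp, 51.2% and 39 genes, and with the widest peaks in equal numbers per list 1411, 12.2%, 239 bp, 71.4% and 55 genes, while the share nearest a start moved little in both. With 48 h and 72 h peaks of at least their list's median score they were 4239, 31.8%, 199 bp, 57.9%, 79.2% and 138 genes. Counting a region with any base within 1 kb gave 79.6% with a gene that kept a region and 100 list genes. The cause was not tested beyond what each setting removes by its construction. A required overlap of 50% moved the values little. ETS letters were in 6.62% of all windows that a member covered and in 8.76% of those with at least 150 bp covered.

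No paired analysis was possible because each condition has 1 list, which also leaves no replicate to leave out. Depth is unknown, so a missing 48 h peak near the calling threshold cannot be told apart from a closed region, and the 48 h list is the shortest. The narrow widths of most members and the share just above the smallest width limit how firmly a single member can be read.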

Other observations

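Genes were also grouped by the first letters of their symbols, in 27 groups with at least 30 genes that have a naive region near an end. Gpr genes, which encode G protein-coupled receptors, had a member in 10 of 33 cases (30.3%, 95% interval 15.6 to 48.7%), and 6 of the 33 (18.2%, 6.98 to 35.5%) had a member and no Th17 region near an end. Over all genes, 4.38% had a member and no such Th17 region. The Slc genes, which encode transporters, had a member in 47 of 208 cases (22.6%), with 15 (7.21%, 4.09 to 11.6%) left without a Th17 region near an end. The Rpl genes of the large ribosomal subunit had a member in 8 of 47 cases (17.0%), and the Rps genes of the small subunit in 4 of 36 (11.1%). No gene had a member and no Th17 region near an end in 15 of the 27 groups, Rpl and Rps among them. The Gpr group is named because its share was the highest of the 27, and the groups named here were chosen after their values were seen.

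Chromosome 17, which carries the major histocompatibility complex, held 164 members (6.95%, 5.96 to 8.05%), against 5.28% (4.84 to 5.74%) of the constant regions near gene ends. Chromosome X held 91 members (3.86%, 3.12 to 4.71%), against 2.73% (2.41 to 3.07%) of the constant regions. The interval of the members also lay above the constant share on chromosome 18 (2.36 to 3.78%, against 2.34%). It lay below that share on chromosome 16 (1.72 to 2.98%, against 3.19%) and chromosome 5 (4.23 to 6.05%, against 6.29%). The part of the major histocompatibility complex in the share of chromosome 17 was not tested. Near the class II genes, H2-Oa, which encodes a chain of the peptide-loading regulator H2-O, had a member of 451 bp (chr17:34092512-34092962), 8606 bp from the nearest Th17 peak. Ltb, which encodes lymphotoxin β, had a member of 606 bp over its start, 690 bp from the nearest 48 h peak. The chromosomes named here, H2-Oa and Ltb were chosen after their values were seen. Members covered 24 of the 11588 promoter windows of genes that are not protein-coding.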
